A study of Mus musculus with 12 samples.

Results

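Expression of 8 ABC drug efflux transporter genes, *Abcb1a*, *Abcb1b*, *Abcc1*, *Abcc2*, *Abcc3*, *Abcc4*, *Abcc5* and *Abcg2*, was examined by RNA sequencing in murine ovarian cancer cells with and without miR-200 overexpression. The members were taken by gene symbol from the 57010 genes counted, and each symbol stood on 1 identifier. Earlier results of these data were known when the members were chosen. The study asked how lentiviral expression of both miR-200 clusters changed ID8 and 28-2 cells, a pair of mouse ovarian cancer lines grown as 2D cultures in serum-supplemented DMEM. ID8EV and 28-2EV cells carried an empty vector with EGFP, mCherry and a puromycin resistance gene, and were kept in puromycin at 30 µg/ml, with no hygromycin named. ID8-200f and 28-2-200f cells carried the same pair of CMV-driven vectors. The vector for miR-200c and miR-141 had mCherry and a hygromycin resistance gene. That for miR-200b, miR-200a and miR-429 had GFP and a puromycin resistance gene. ID8-200f cells were kept in puromycin at 40 µg/ml and hygromycin at 50 µg/ml, and 28-2-200f cells in puromycin at 60 µg/ml and hygromycin at 1000 µg/ml. Each group had 3 libraries from independent samples, and the sources do not describe the infected cells as single clones. Each 200f line differed from its empty vector line in both vectors and drug doses. The effects of the miRNAs, the resistance genes and the drugs therefore cannot be told apart.

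ABC transporters use ATP to move substrates across membranes, and those described here sit in the plasma membrane and pump drugs and their conjugates out of the cell. P-glycoprotein, which in the mouse is encoded by *Abcb1a* and *Abcb1b*, exports large hydrophobic drugs, puromycin among them. The ABCC (MRP) proteins export organic anions, glutathione and glucuronide conjugates and, for ABCC4 and ABCC5, cyclic nucleotides, while ABCG2 (BCRP) exports a broad range of drugs and their sulfate conjugates. These pumps are known for their part in multidrug resistance of tumours, ovarian cancer included.

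The miRNAs that the vectors carry are shown with their seed, bases 2 to 8, in capitals, because the seed sets which 3′UTR letters they can pair with. Sequences and positions are from RefSeq for build GRCm38.p6. The 5 miRNAs fall into a pair of seed groups that differ at 1 base, miR-141 with miR-200a and miR-200b with miR-200c and miR-429.
miR-141-3p: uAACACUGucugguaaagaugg
miR-200a-3p: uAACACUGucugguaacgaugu
miR-200b-3p: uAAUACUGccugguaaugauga
miR-200c-3p: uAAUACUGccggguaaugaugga
miR-429-3p: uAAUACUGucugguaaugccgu
The genes *Mir200a*, *Mir200b*, *Mir429*, *Mir200c* and *Mir141* had 0 counts in all 12 libraries, so these counts hold no measure of the vectors' miRNAs.

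The complements of those seeds, CAGTGTT for miR-141 and miR-200a and CAGTATT for miR-200b, miR-200c and miR-429, were searched on the transcript strand of GENCODE M21 3′UTRs. The count depended on which transcript stood for each gene. The search was first run in the longest 3′UTR of any isoform, where 5 of the 8 members, or 62.5%, held a match to either seed, beside 26.85% of 21173 genes. The transcript with the longest coding sequence was used after that result had been seen, because the *Abcb1b* match lay in a short isoform with a coding length of 318 bases. With it, 3 of the 8 members, or 37.5%, held a match, beside 23.63% of all genes and 9 of 39 other ABC genes, or 23.08%. The members' 3′UTRs were also longer, with a median of 1471 bases beside 804 for all genes. *Abcb1b* and *Abcc1* held a match only under the first rule. The sites are shown with the seed match in capitals and with GRCm38 positions, the first 4 from the transcripts with the longest coding sequence and the last 2 from the longest 3′UTR.
Abcc2, chr19:43839803-43839825, plus strand: ttagataaCAGTGTTtccatttc
Abcc5, chr16:20331789-20331811, minus strand: tctgctccCAGTGTTccatgctt
Abcg2, chr6:58692446-58692468, plus strand: accatatcCAGTGTTcttttctt
Abcg2, chr6:58694138-58694160, plus strand: ccattttcCAGTGTTctctttat
Abcb1b, chr5:8827807-8827829, plus strand: catacaacCAGTGTTtgccatag
Abcc1, chr16:14471981-14472003, plus strand: ctttcagtCAGTATTctgatgaa
RefSeq ends *Abcc2* at base 43838332 and *Abcg2* at base 58692451, before or within these GENCODE sites. A match of letters is a description and not a measured binding site.

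Total counts were 16390953 to 23063875 per library. 28-2 replicates were less alike than ID8 replicates, with an SD of log2 deviations from the group mean of 0.302 to 0.565 beside 0.201 to 0.266. The value of 0.565 belonged to 28-2EV replicate 2, so results that rest on it are given with and without it. All 8 markers of ovarian surface and mesothelial cells were detected in every group, with a summed level of 4295 to 7337 CPM, and at least 7 of them reached 1 CPM in each. Leukocyte markers summed to at most 4.03 CPM, endothelial markers to at most 3.36 CPM and erythroid markers to at most 0.70 CPM, with *Adgre1*, *Itgam*, *Cd3e*, *Cdh5*, *Emcn*, *Hba-a1* and *Hbb-bs* at 0 throughout. Fibroblast markers summed to 480 to 532 CPM in ID8EV, 115 to 171 CPM in ID8-200f, 81.6 to 487 CPM in 28-2EV and 212 to 400 CPM in 28-2-200f, and their part in the results below was not tested. In such bulk samples, fewer cells that express a gene and less RNA of it per cell cannot be told apart.

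Per transcript length, *Abcc5* was the most abundant of the transporters in all 4 groups. Its mean level was 114 ± 7.09 TPM in ID8EV, 126 ± 7.20 TPM in ID8-200f, 92.0 ± 11.9 TPM in 28-2EV and 131 ± 15.01 TPM in 28-2-200f (SD, n = 3). TPM is scaled by gene length as well as depth and so allows an order between genes. *Abcc5* took 42.9% of the transporters' summed TPM in 28-2EV and 50.4% to 55.1% in the other groups, and its libraries did not overlap those of the next gene in any group. *Abcc1* and *Abcg2* came next. Their libraries overlapped in ID8EV, ID8-200f and 28-2-200f, while in 28-2EV *Abcc1*, at 59.5 ± 8.50 TPM, lay above *Abcg2*, at 34.2 ± 9.91 TPM (SD, n = 3). *Abcc4* followed at 13.4 to 25.1 TPM by group mean, without overlap with its neighbours. *Abcc3* and *Abcb1b*, at 1.82 to 4.99 TPM by group mean, overlapped each other in every group but ID8-200f, where *Abcb1b* was above *Abcc3*. *Abcb1a* stayed at or under 0.38 TPM and *Abcc2* at or under 0.016 TPM by group mean. The summed level of the 8 genes was 226 ± 10.8 TPM in ID8EV, 240 ± 10.9 TPM in ID8-200f, 215 ± 20.1 TPM in 28-2EV and 237 ± 20.3 TPM in 28-2-200f (SD, n = 3). The total therefore differed between groups by little more than the spread of the 28-2 libraries.

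**Figure D1:**
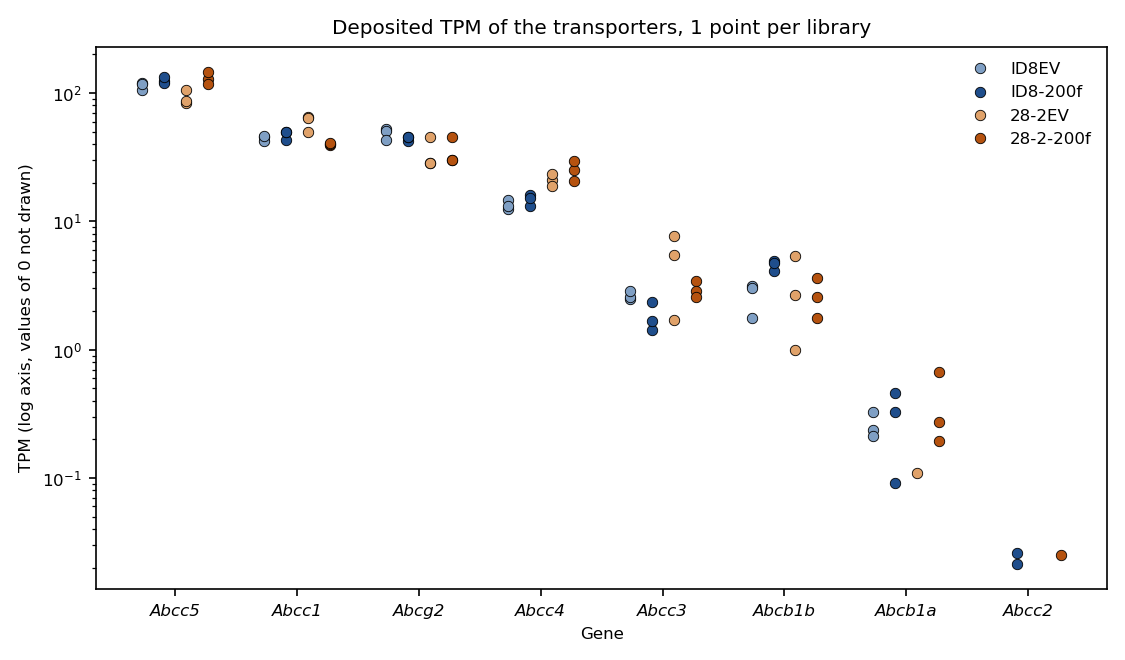
Deposited TPM (log axis) of the 8 transporters, with 1 point per library, coloured by group, and values of 0 not drawn. *Abcc5* lies highest in every group, at 92.0 to 131 TPM by group mean, and *Abcc2* has a value above 0 in 3 of the 12 libraries.

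The P-glycoprotein genes were low. *Abcb1a* counts were 8, 7 and 7 in ID8EV, 14, 3 and 8 in ID8-200f, 3, 0 and 0 in 28-2EV and 7, 5 and 18 in 28-2-200f. The 28-2EV libraries lay below all others but ID8-200f replicate 2, which had the same count of 3 as 28-2EV replicate 1. Summed over libraries and scaled by depth, *Abcb1a* was 10.1 times as high in 28-2-200f as in 28-2EV, with an exact 95% interval of 3.14 to 51.8, from 30 and 3 reads. The same ratio of ID8EV to 28-2EV was 6.34, with an interval of 1.90 to 33.1, from 22 and 3 reads. Both intervals take in the error of counting alone, because the reads were summed over the libraries of each group, which leaves out the spread between replicates. Reads carrying no molecular identifier are also not separate molecules, so the error of counting itself may be larger. *Abcb1a* did not pass the filter on low counts, so neither ratio was tested over replicates. *Abcb1a* and *Abcb1b* share sequence. Of the 50-base windows of the *Abcb1a* transcript, 15.5% were found unchanged in *Abcb1b*, and 18.04% in the other direction, while no other pair of members shared a window. How such reads were assigned is not given in the sources used here, so the split between this pair is uncertain, and with the low counts of *Abcb1a* it matters most for that gene.

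*Abcb1b* was higher in ID8-200f cells than in ID8EV cells. Its counts were 112, 130 and 85 in ID8EV and 181, 235 and 169 in ID8-200f, or 6.53, 6.45 and 3.69 CPM (counts scaled to the library total) against 8.84, 10.4 and 9.87 CPM. Every ID8-200f library lay above every ID8EV library. Groups did not overlap in this way for 50.2% of all genes tested in this comparison. The increase was 1.80-fold, a log2 fold change of 0.84 ± 0.21 (SE, 95% interval 0.40 to 1.29), with an adjusted p of 0.00608 by edgeR's quasi-likelihood test with Benjamini-Hochberg adjustment over 13280 genes. A larger absolute fold change was seen for 12.8% of the genes tested. With the counts of *Abcb1a* and *Abcb1b* summed, the log2 fold change was 0.81 with an edgeR adjusted p of 0.00619. When all 4 groups shared one fit, and with it the wider spread of the 28-2 libraries, the estimate was 0.86 and the edgeR adjusted p was 0.283.

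In 28-2 cells *Abcb1b* did not show this pattern. Counts were 106, 207 and 37 in 28-2EV and 66, 96 and 140 in 28-2-200f, or 5.97, 11.5 and 2.26 CPM against 3.85, 5.74 and 7.89 CPM. The 28-2EV libraries spanned both the lowest and the highest of these values, and the groups overlapped. The log2 fold change was -0.14 with a 95% interval of -1.52 to 1.24 and an edgeR adjusted p of 0.924. Without 28-2EV replicate 2, the library with 207 counts, it was 0.58 with an edgeR adjusted p of 0.475. The interval includes the size seen in ID8, and the difference between the lines, -0.97 with an interval of -2.45 to 0.50, did not pass the interaction test (edgeR adjusted p of 0.534).

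The levels of the P-glycoprotein genes were also set beside the drug doses. The mean of *Abcb1b* was 5.56 ± 1.62 CPM in ID8EV and 6.57 ± 4.65 CPM in 28-2EV, both in puromycin at 30 µg/ml, 9.70 ± 0.79 CPM in ID8-200f at 40 µg/ml and 5.83 ± 2.02 CPM in 28-2-200f at 60 µg/ml (SD, n = 3). The 28-2-200f libraries, in the highest dose of both drugs, all lay below the ID8-200f libraries, a separation seen for 31.1% of all genes tested between these groups, and the log2 difference of -0.68 (95% interval -1.33 to -0.03) had an edgeR adjusted p of 0.186. Without 28-2-200f replicate 3 it was -0.995 with an edgeR adjusted p of 0.0314. With each of the 6 libraries left out in turn, that adjusted p ranged up to 0.390, and no other of these fits passed. *Abcb1a* was highest by mean in 28-2-200f, at 0.574 CPM, and lowest in 28-2EV, at 0.0563 CPM, on the few reads given above. With 1 dose in each group, no relation to dose could be tested.

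**Figure D2:**
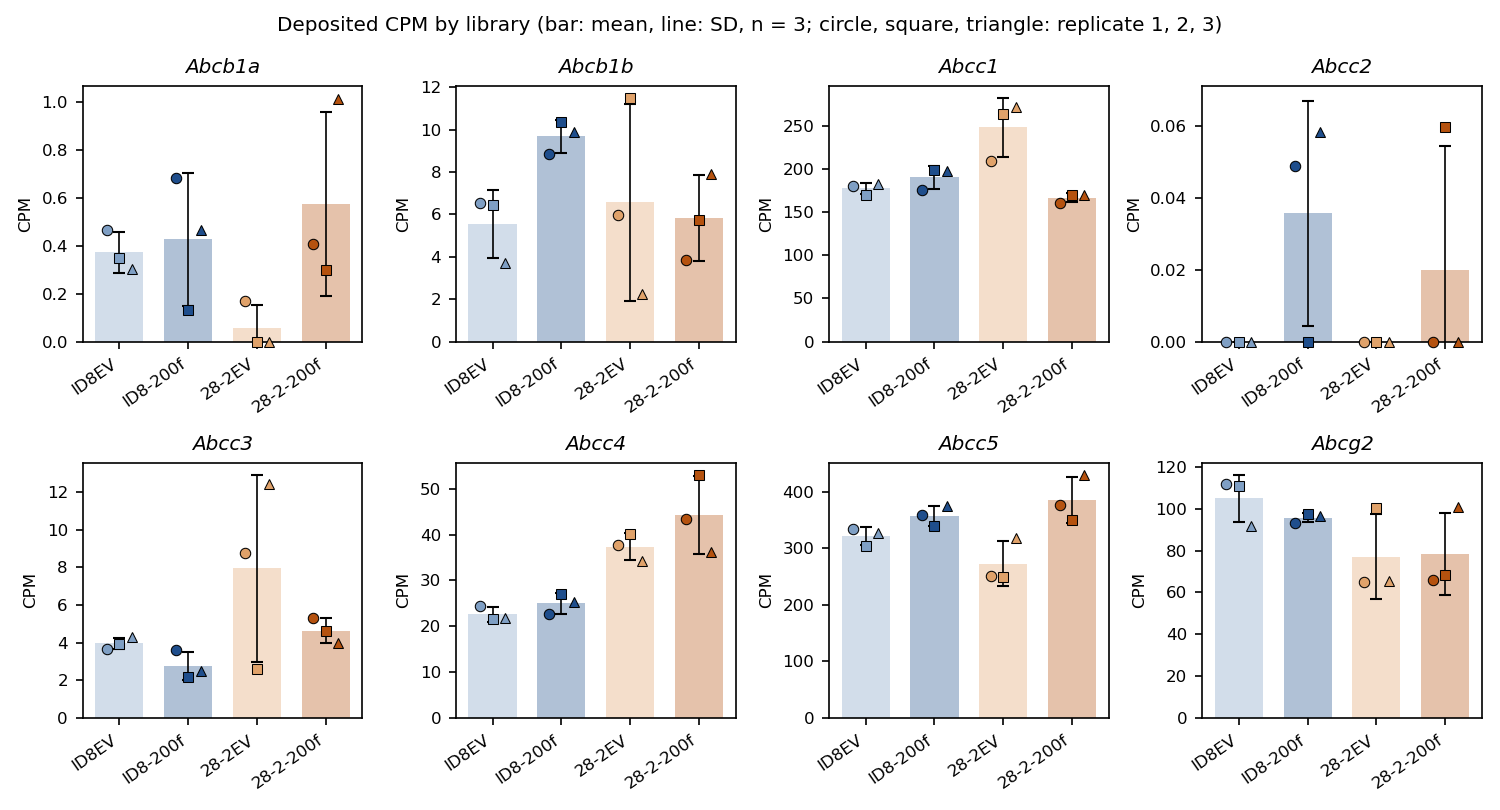
Deposited CPM of each transporter by group, each panel with its own linear axis from 0. Bars are means, lines are SD (n = 3), and circles, squares and triangles are replicates 1, 2 and 3. The ID8-200f libraries of *Abcb1b* (8.84 to 10.4 CPM) lie above the ID8EV libraries (3.69 to 6.53 CPM), and *Abcc4* is higher in all 28-2 libraries than in all ID8 libraries.

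*Abcc1*, which exports glutathione conjugates and many anticancer drugs, was similar in both ID8 groups and lower in 28-2-200f than in 28-2EV libraries. In CPM it was 180, 170 and 183 in ID8EV, 175, 199 and 197 in ID8-200f, 210, 264 and 272 in 28-2EV and 161, 170 and 170 in 28-2-200f. The 28-2EV libraries lay above those of 28-2-200f and ID8EV, and the 28-2-200f libraries below those of ID8-200f. Groups did not overlap for 25.4%, 24.6% and 31.1% of all genes tested in these 3 comparisons, in that order. In 28-2 the log2 fold change was -0.54 ± 0.16 (SE, 95% interval -0.92 to -0.16), with a p of 0.0120 before and 0.120 after adjustment in edgeR. In ID8 it was 0.13 (95% interval -0.06 to 0.31) with an edgeR adjusted p of 0.264. The difference between the lines was -0.66 (95% interval -1.05 to -0.27), with an edgeR adjusted p of 0.0779. That value passed 0.05 with library size in place of TMM (0.0393), with DESeq2 (adjusted p of 0.0271) and without 28-2EV replicate 1 (0.0220 in edgeR). With each of the 12 libraries left out in turn, the edgeR value ranged up to 0.196, and no other of these fits passed. *Abcc1* also passed in 28-2 when all 4 groups shared one edgeR fit, with a log2 fold change of -0.51 and an adjusted p of 0.0167. That fit takes in the narrower spread of the ID8 libraries, and it called 2325 genes in 28-2 in place of 564.

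*Abcc5*, an exporter of cyclic nucleotides and nucleotide analogues, was above its empty vector line in all 200f libraries of both lines. It stood at 334, 304 and 327 CPM in ID8EV and 359, 339 and 374 CPM in ID8-200f, a log2 fold change of 0.18 (95% interval 0.00 to 0.35) with an edgeR adjusted p of 0.102. In 28-2EV it stood at 251, 249 and 318 CPM and in 28-2-200f at 376, 350 and 430 CPM, a log2 fold change of 0.54 (95% interval 0.13 to 0.94) with an edgeR adjusted p of 0.138. Neither difference passed the test, although the groups did not overlap in either line. Such separation was seen for 50.2% of the genes tested in ID8 and 25.4% of those tested in 28-2. With all 4 groups in one edgeR fit, the 28-2 estimate was 0.56 with an adjusted p of 0.0101. That fit, which takes in the narrower spread of the ID8 libraries, called 2325 genes in 28-2 in place of 564. *Abcc5* holds the match to the seed of miR-141 and miR-200a shown above.

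*Abcc4*, which exports cyclic nucleotides and prostaglandins, was higher in the 28-2 lines than in the ID8 lines. In CPM it was 24.4, 21.5 and 21.9 in ID8EV, 22.6, 27.1 and 25.3 in ID8-200f, 37.8, 40.2 and 34.2 in 28-2EV and 43.5, 53.1 and 36.2 in 28-2-200f. All 28-2 libraries lay above all ID8 libraries, and the 6 libraries of one line did not overlap the 6 of the other for 3.48% of all genes tested over the 12. *Abcc4* was higher in 28-2EV than in ID8EV by 1.70-fold, a log2 fold change of 0.76 ± 0.14 (SE, 95% interval 0.44 to 1.09) with an edgeR adjusted p of 0.0293, at the same puromycin dose. It was higher in 28-2-200f than in ID8-200f by 1.81-fold, a log2 fold change of 0.86 ± 0.16 (SE, 95% interval 0.50 to 1.22) with an edgeR adjusted p of 0.0130. The first call was lost without any 1 of the ID8EV libraries or without 28-2EV replicate 1, with edgeR adjusted p of 0.0800 to 0.188 and estimates of 0.73 to 0.81. It was also lost with limma on log2(TPM + 1) (adjusted p of 0.0776). The second was lost without ID8-200f replicate 1 (0.78, edgeR adjusted p of 0.0736) or replicate 3 (0.86, edgeR adjusted p of 0.0728). The vector differences were 0.18 in ID8 (95% interval -0.07 to 0.42) and 0.27 in 28-2 (95% interval -0.16 to 0.70), and neither passed the test.

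*Abcc3*, an exporter of glucuronide conjugates, was low and varied most among 28-2EV libraries. It had 63, 79 and 99 counts in ID8EV and 74, 49 and 43 counts in ID8-200f, or 3.68, 3.92 and 4.29 CPM against 3.61, 2.17 and 2.51 CPM. The ID8-200f libraries were all below, by little for replicate 1, where groups did not overlap for 50.2% of all genes tested. The log2 fold change of -0.50 (95% interval -1.01 to 0.01) had an edgeR adjusted p of 0.119. Without ID8-200f replicate 1 it was -0.73 with an edgeR adjusted p of 0.0426. With each of the 6 ID8 libraries left out in turn, that adjusted p ranged up to 0.307, and no other of these fits passed. In 28-2EV *Abcc3* stood at 8.78, 2.61 and 12.4 CPM, with replicate 2 far below the others, and in 28-2-200f at 5.31, 4.61 and 4.00 CPM. The log2 fold change was -0.73 (95% interval -1.92 to 0.45, edgeR adjusted p of 0.485) with replicate 2 and -1.14 (edgeR adjusted p of 0.0470) without it. Against ID8EV, 28-2EV was higher by 1.03 on the log2 scale (95% interval -0.14 to 2.19, edgeR adjusted p of 0.358) with replicate 2 and by 1.45 (edgeR adjusted p of 0.00624) without it.

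*Abcg2* showed no difference between vectors that passed the test. Its levels were 112, 111 and 91.7 CPM in ID8EV and 93.2, 97.6 and 96.5 CPM in ID8-200f, with a log2 fold change of -0.10 (95% interval -0.30 to 0.09) and an edgeR adjusted p of 0.412. In 28-2EV they were 65.0, 100 and 65.5 CPM and in 28-2-200f 66.1, 68.3 and 101 CPM, with a log2 fold change of 0.06 (95% interval -0.57 to 0.70) and an edgeR adjusted p of 0.929. In each 28-2 group 1 library stood at about 100 CPM, replicate 2 in 28-2EV and replicate 3 in 28-2-200f, while the other 4 lay between 65.0 and 68.3 CPM. Without 28-2EV replicate 2, *Abcg2* was lower in 28-2EV than in ID8EV, with a log2 fold change of -0.66 and an edgeR adjusted p of 0.0140, against -0.40 and 0.401 with it. Without 28-2-200f replicate 3, it was lower in 28-2-200f than in ID8-200f, at -0.50 with an edgeR adjusted p of 0.0185, against -0.24 and 0.460 with it. With each of the 6 libraries of the 200f lines left out in turn, that adjusted p ranged up to 0.741. Only the fit without 28-2-200f replicate 3 passed. *Abcg2* holds 2 matches to the seed of miR-141 and miR-200a, shown above.

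*Abcc2*, best known as the conjugate pump of the liver's bile canaliculus, had 3 reads in all, 1 each in ID8-200f replicates 1 and 3 and in 28-2-200f replicate 2. It was at 0 in 9 libraries, where a count of 0 allows up to 0.130 to 0.183 CPM. No difference was detectable at this depth.

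Counted over the members, 6 of 8 passed the filter on low counts in each comparison, the exceptions being *Abcb1a* and *Abcc2*. In ID8, 1 of the 6, *Abcb1b*, was higher and 0 were lower, where at an FDR under 0.05 edgeR called 17.0% of all genes higher and 19.0% lower. At the stricter limit the study used, with FDR below 0.01 and log2 fold changes beyond 1 in size, 0 of the 6 passed, where 7.41% of all genes did. In 28-2, edgeR called 0 of the 6 higher or lower, where 2.26% and 2.18% of all genes were, and 0.757% passed the stricter limit. DESeq2 called 0 as well, and *Abcc1* and *Abcc5*, 2 of the 6, had an unadjusted p under 0.05 in edgeR. At the stricter limit, the edgeR fits here passed 984 genes in ID8 and 96 in 28-2. The study, which does not name its test, reported slightly more genes at that limit in ID8 and far more in 28-2. The shares given here are therefore not those of the study. Between the empty vector lines, 1 member, *Abcc4*, was higher in 28-2EV and 0 lower, beside 0.887% and 2.52% of all genes. Between the 200f lines, *Abcc4* was again the 1 called, higher in 28-2-200f, beside 4.83% of genes higher and 4.61% lower. These comparisons share libraries with the vector comparisons. By the interaction test, edgeR called 0 members, where 2.26% of genes were higher and 0.712% lower, DESeq2 called *Abcc1* alone, and 1 member, *Abcc1*, had an unadjusted p under 0.05 in edgeR. The median log2 fold change of the 6 tested members was 0.15 in ID8 and -0.04 in 28-2, beside -0.001 and -0.012 for all genes.

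**Figure D3:**
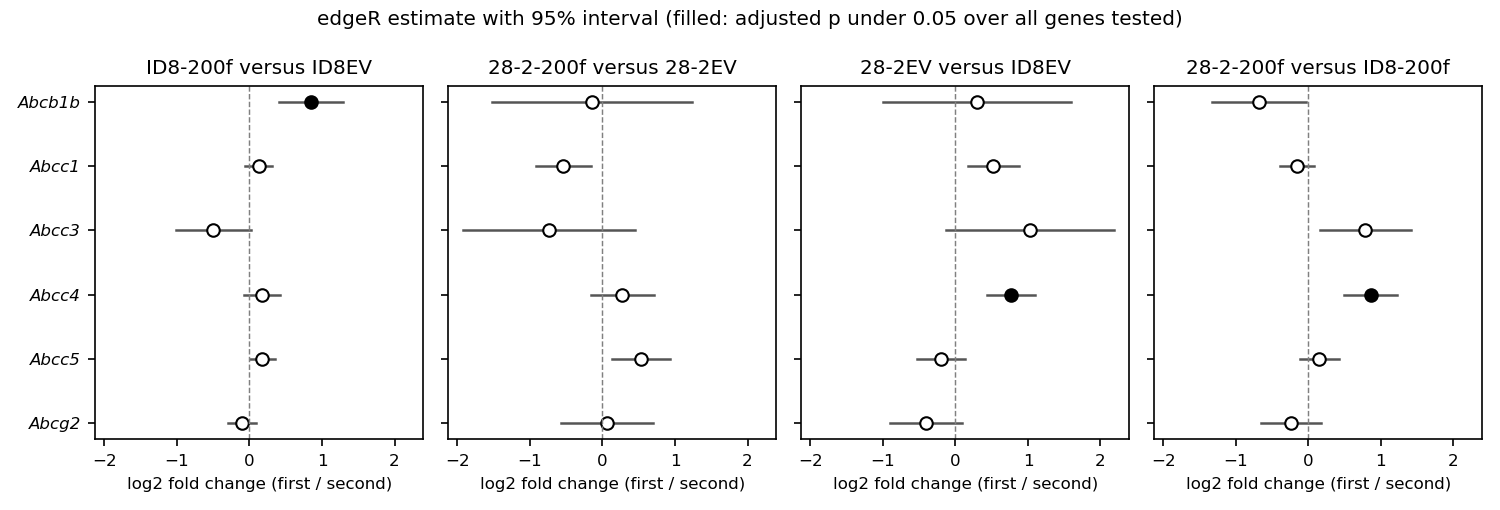
edgeR log2 fold changes (points) with 95% intervals (lines) of the 6 tested transporters in 4 comparisons, each named as first versus second group. Filled points had an adjusted p under 0.05, and these are *Abcb1b* in ID8 (0.84) and *Abcc4* between the lines (0.76 and 0.86).

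**Figure D4:**
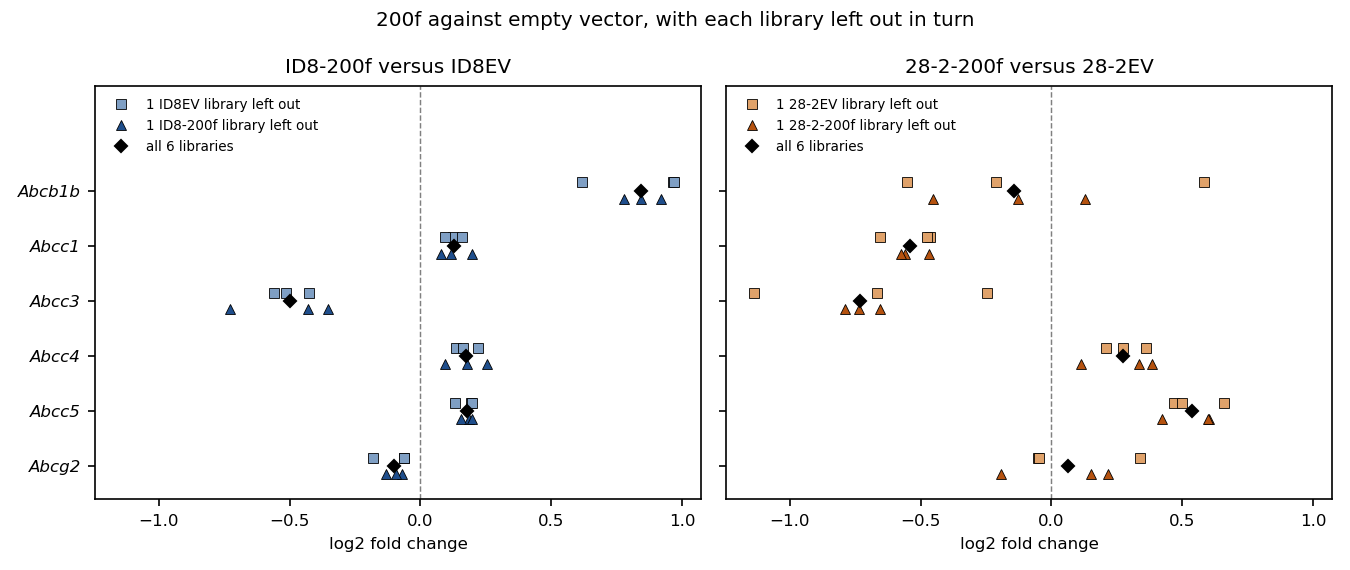
Log2 fold changes of 200f against empty vector with all 6 libraries (diamonds) and with each library left out in turn (squares, an empty vector library; triangles, a 200f library). *Abcb1b* stayed between 0.62 and 0.97 in ID8, and ranged from -0.55 to 0.58 in 28-2.

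The plot of estimates with libraries left out shows how far single libraries decide these values. *Abcb1b* in ID8 kept its call in all 6 such fits, with edgeR adjusted p of 0.00543 to 0.0235. In 28-2, the estimate of *Abcc1* stayed between -0.66 and -0.46 and that of *Abcc5* between 0.42 and 0.66, without passing the test in any of them.

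Genes whose level followed the members most closely over the 12 libraries were sought by the distance of centred log2 CPM. Nearest to *Abcb1b* were *Cdc6*, *Trip13* and *Uhrf1*, at distances of 0.716, 0.813 and 0.870. *Cdc6* licenses replication origins, *Trip13* is an ATPase of the spindle checkpoint and *Uhrf1* maintains DNA methylation. Their log2 fold changes were 0.58, 0.65 and 0.52 in ID8 and 0.15, -0.12 and -0.22 in 28-2. These are a description only, since the genes were picked for levels like those of *Abcb1b* in the same libraries. Nearest to *Abcc1* were *Tmem43*, *Cabin1* and *Ddah1*, at 0.339 to 0.361, with 28-2 log2 fold changes of -0.47, -0.44 and -0.56, chosen in the same way.

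Other genes around these pumps were counted from 9 lists. In ID8, 60 of the listed genes were tested, of which 19 were higher and 13 lower in ID8-200f. In the same fit edgeR called 17.0% of all genes higher and 19.0% lower. Among lipid and sterol ABC transporters, 1 of 9 tested was higher and 4 were lower. *Abca9* fell from 24.8 ± 5.48 to 1.25 ± 0.82 CPM, and *Abca1*, which loads cholesterol onto apolipoprotein A-I, from 16.2 ± 1.12 to 7.13 ± 0.51 CPM (SD, n = 3), log2 fold changes of -4.33 and -1.16 with edgeR adjusted p of 5.02e-07 and 2.34e-05. *Abca8b* (-1.21) and *Abca4* (-2.15) were lower as well and *Abca5* (0.88) was higher. *Abca4* was low in both groups, at 1.29 ± 0.53 CPM in ID8EV and 0.30 ± 0.20 CPM in ID8-200f (SD, n = 3). With limma on log2(TPM + 1) its difference was -0.36 with an adjusted p of 0.0924. Of 3 genes of the TAP and lysosomal group, *Tap2*, which moves peptides into the endoplasmic reticulum for MHC class I, rose from 4.95 ± 0.53 to 15.2 ± 2.31 CPM (SD, n = 3), a log2 fold change of 1.63 with an edgeR adjusted p of 5.37e-06. In the list of mitochondrial and peroxisomal transporters, *Abcd4* (0.51), whose protein moves cobalamin out of lysosomes, was higher, and *Abcd3* (-0.35), which imports fatty acids into peroxisomes, was lower. The 3 other C subfamily genes tested in ID8 did not pass the test, with a median of 0.08. All 4 ABC proteins without a membrane domain, which are no pumps and include the ribosome recycling factor *Abce1*, were higher, *Abcf2* (0.44), *Abcf1* (0.41), *Abcf3* (0.37) and *Abce1* (0.45). Calls of *Abcd4* and *Abcf3* were lost without ID8EV replicate 2 (edgeR adjusted p of 0.0614 and 0.0628), of *Abcd3* without ID8EV replicate 3 (0.0581) or ID8-200f replicate 2 (0.0621), of *Abcf3* without ID8-200f replicate 2 (0.0695) and of *Abce1* without ID8-200f replicate 3 (0.0827).

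Of 11 regulators of efflux genes tested in ID8, 5 were higher and 1 was lower. *Ahr*, the aryl hydrocarbon receptor, had a log2 fold change of 0.57, *Nfe2l2*, the oxidative stress factor NRF2, of 0.36, *Hif1a* of 0.40 and *Ybx1* of 0.30, while *Arnt*, the partner of AHR and HIF1A, was lower at -0.38. Of 7 genes of glutathione supply, 4 were higher, *Gclc* (0.55), *Gss* (0.42), *Gsr* (0.28) and *Gclm* (0.23), all of which make or recycle glutathione. *Ggt5*, which breaks it down outside the cell, was lower (-1.85), at low levels of 1.16 CPM in ID8EV and 0.31 CPM in ID8-200f. Of 4 genes for anchors that tie pumps to the cortex, *Msn* was higher (0.27), and *Slc9a3r1* (-1.07) and *Ezr* (-0.48) were lower. Of 12 other drug carriers tested, *Slc29a1* (0.43) and *Slc29a2* (0.55) were higher, and *Slc29a3* (-0.46), *Atp7a* (-0.77) and *Slco2a1* (-0.99) were lower. In edgeR, the adjusted p of the listed genes named here as higher or lower in ID8 ranged up to 0.043, and 17.0% and 19.0% of all genes were called higher and lower in the same fit. The call of *Msn* was lost without any 1 of the ID8 libraries other than ID8EV replicate 1 and ID8-200f replicate 1 (edgeR adjusted p of 0.0907 to 0.131), and that of *Gclm* without any other than ID8-200f replicate 1 (0.0609 to 0.116). Also lost were the calls of *Ybx1* (0.0647) and *Gsr* (0.0549) without ID8EV replicate 2, and that of *Slc29a2* without ID8EV replicate 3 or ID8-200f replicate 2 or 3, with edgeR adjusted p of 0.102 to 0.159. *Slco2a1* was not called without ID8EV replicate 3 or ID8-200f replicate 3 (edgeR adjusted p of 0.0512 and 0.0614), nor *Slc29a3* without ID8EV replicate 3 or ID8-200f replicate 1 or 2 (0.0579 to 0.124). With all 4 groups in one edgeR fit, of the listed genes named here for ID8 only *Abca9*, *Abca1*, *Tap2*, *Slc9a3r1*, *Gclc* and *Atp7a* were still called.

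In 28-2, 1 of 59 listed genes tested passed, where 2.26% of all genes were higher and 2.18% lower. *Abca5*, a lysosomal lipid transporter, rose from 4.58 ± 2.00 to 28.9 ± 9.88 CPM (SD, n = 3), a log2 fold change of 2.69 with an edgeR adjusted p of 0.0131, and 14 of the 59 (23.7%) had an unadjusted p under 0.05 in edgeR, beside 20.1% of all genes. In ID8 39 of 60 listed genes had such a p, beside 46.0% of all genes. Without 28-2-200f replicate 2 the adjusted p of *Abca5* was 0.0578. Without 28-2EV replicate 2, a setting chosen once its distance from its group was known, 3 of 59 listed genes tested were higher and 5 lower by the same test. Over all genes, that fit called 660 higher and 717 lower, in place of 287 and 277 with all libraries. The listed genes called were *Abca5*, *Ahr* and *Gsr*, which were higher, and lower ones that included *Abca8b*, *Abca9*, *Nr1h4* and *Ggt5*.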

How the data were processed

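RNA from 12 cultures (4 groups, 3 each) was sequenced, and the authors trimmed, aligned and counted reads in Genialis with featureCounts and build GRCm39, per the submitters' processing notes and the study's methods. Not given in the sources used here are the aligner version, annotation release, strand setting and test. The deposited values were whole read counts per gene, and TPM and CPM that the authors' pipeline computed from them. Tests used the deposited counts, levels the deposited CPM (count over library total) and order between genes the deposited TPM. Each comparison was fitted on its own 6 libraries by the quasi-likelihood test of edgeR 4.0.16 (R 4.3.3), after TMM and filterByExpr (count of 10, total of 15), and the interaction on all 12. Calls needed an FDR below 0.05, adjusted over every gene tested. p-values measure the spread between these cultures.

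Alternatives were library size or RLE normalization, 1 CPM in 3 libraries or no filter, DESeq2 1.42.0, limma 3.58.1 on log2(TPM + 1), all 4 groups in one fit, *Abcb1a* and *Abcb1b* summed, the replicate number as a block, and each library left out. Steps were tested on simulated data with 200 changed genes per comparison. The members, the 9 gene lists and the tests were chosen with earlier results of these data known. Named genes are the 8 members, up to 4 genes per list and direction by adjusted p in each vector comparison, and the 3 genes nearest in level to the member with the smallest adjusted p in each, skipping pseudogenes and numbered gene models. The display in CPM, the 50-base windows and the count of groups without overlap were chosen after the files were seen. Sequences are from GRCm38 references (RefSeq, GENCODE M21), which matched all 8 members and all 5 miRNAs, while the counts were made on GRCm39 and are joined by gene identifier only. Between replicates, chi-square over its degrees of freedom was 5.42 to 23.0 in ID8 and 28.8 to 145 in 28-2, so no library was a repeat of another. Protein, RT-qPCR and functional measurements were not analysed here. Some listed genes are counted in the totals but not reported here by name. Tables and plots used pandas 2.3.3, scipy 1.17.1, numpy 2.4.6 and matplotlib 3.10.9 in Python 3.11.15.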

Additional observations from a re-analysis of the deposited data

How the results depend on the processing

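Over the members' fold changes, 449 of 480 alternative values kept direction and side of the threshold, 9 lost a call, 12 gained one and 10 changed sign, none of those a called value. Of 478 values for the listed genes, 412 kept both, 66 lost the call and 0 changed sign. The cause of these changes was not tested.

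With all 4 groups in one fit, the genes called changed from 4775 to 1008 in ID8, from 564 to 2325 in 28-2 and from 446 to 953 between the empty vector lines, and the members called from 1 to 0, from 0 to 2 and from 1 to 2. With no filter, the genes called were 1090 in 28-2, 862 between the empty vector lines, 2117 (from 1200) between the 200f lines and 906 (from 405) for the interaction. With DESeq2 they were 1367, 986 and, for the interaction, 828, and for the interaction 1 member was called with DESeq2 and 1 with library size alone. limma on TPM left 0 members called between the empty vector lines, where *Abcc4* had a log2 difference of 0.62 and a limma adjusted p of 0.0776.

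With a library left out in turn, the genes called ranged from 98 to 1377 in 28-2, from 117 to 1386 between the empty vector lines, from 352 to 1893 between the 200f lines and from 213 to 748 for the interaction, the highest of the first and second being without 28-2EV replicate 2 and of the third without 28-2-200f replicate 1. Members called ranged from 1 to 2 in ID8, from 0 to 1 in 28-2, from 0 to 3 between the empty vector lines, from 0 to 3 between the 200f lines and from 0 to 1 for the interaction. Some uncalled estimates changed sign. In 28-2, *Abcb1b* ranged from -0.55 (without 28-2EV replicate 3) to 0.58 (without replicate 2), with 0.13 without 28-2-200f replicate 1, and *Abcg2* from -0.19 (without 28-2-200f replicate 3) to 0.34 (without 28-2EV replicate 2), with -0.05 without 28-2EV replicate 1 or 3. Between the empty vector lines *Abcb1b* ranged from -0.40 (without 28-2EV replicate 2) to 0.72 (without replicate 3). For the interaction, *Abcc3* ranged from -0.66 to 0.25 (without 28-2EV replicates 2 and 3), *Abcc4* from -0.078 to 0.198 (without 28-2-200f replicates 2 and 3) and *Abcg2* from -0.10 (without 28-2-200f replicate 3) to 0.42 (without 28-2EV replicate 2).

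Correlations of same-numbered deviations ran from -0.11 to 0.05 between the ID8 groups and from -0.30 to 0.21 between the 28-2 groups. They ran from -0.12 to 0.35 between the empty vector lines and from -0.06 to 0.24 between the 200f lines. In none of these comparisons was every pair above 0.1. For groups not compared directly, they ran from 0.07 to 0.32 (ID8-200f with 28-2EV) and from -0.18 to 0.003 (ID8EV with 28-2-200f). With 3 libraries per group, these values cannot decide whether the replicate numbers pair the samples. With the replicate block, the genes called were 4348 in ID8 and 265 in 28-2, *Abcb1b* had a log2 fold change of 0.86 in ID8 (edgeR adjusted p of 0.00493) and 0.022 in 28-2, and 0 members were called between the empty vector lines, where *Abcc4* was at 0.76 (edgeR adjusted p of 0.0640).

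Depth limited *Abcb1a* and *Abcc2*, at 0 to 18 and 0 to 1 counts per library. The spread of 28-2EV limited *Abcb1b* and *Abcc3*, whose highest library was 5.09 and 4.77 times the lowest.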
